A study of Mus musculus with 3 samples.

Results

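The genes described here are the leukocyte integrin chains and the P-selectin ligand of blood granulocytic myeloid-derived suppressor cells (G-MDSCs). They were chosen by name and not by a cutoff on their values, though earlier results of these data were known. The list is Itgam, Itgal, Itgax, Itgb2, Itgb2l, Itga4, Itgb1, Itgb7 and Selplg, 9 of the 26655 genes measured. All 9 had at least 1 FPKM in every library. FPKM is the number of sequenced fragments scaled to the length of the gene and to the depth of the library, so that levels of different genes can be set side by side.

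Integrins are pairs of an α and a β chain that span the plasma membrane and bind cells or matrix outside it. In neutrophils and their relatives, the β2 chain pairs with αL, αM or αX, and signals from inside the cell switch these receptors from a resting to a binding form. The α4 chain pairs instead with β1 or β7. Selectins and their ligands work earlier: PSGL-1, the P-selectin ligand on the leukocyte, lets cells roll along the vessel wall before integrins hold them firmly.

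RNA of G-MDSCs from peripheral blood was sequenced as 3 libraries, 1 per condition, from C57BL/6J mice. The normal library came from mice with no tumor, and the libraries named 2Ws and 3Ws came from mice that had carried subcutaneous B16F10 tumors, a transplantable mouse melanoma line, for 2 and 3 weeks. By their labels all cells carried CD11b and Gr1, and the methods of the study state mice of 8 to 10 weeks of age and a magnetic separation through Ly6G. CD11b is the protein of Itgam, so the labels define the cells by a product of one of the genes described here. The methods for isolating these cells do not state a selection on CD11b. One label field gives the tumor times in months where the sample descriptions give weeks, and weeks are used here. Neither the number of mice behind a library nor a separate culture or preparation is stated. With 1 library per condition no difference could be checked in a replicate and none has a p-value. The 95% intervals given here are exact Clopper-Pearson intervals of read numbers, or Wald intervals where a ratio between genes is compared between libraries, and cover counting error only.

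Read totals recovered from the values were 16549246 to 17325747 per library. The neutrophil markers S100a8 and S100a9 together took 10.5% of the FPKM sum in the normal library, 12.1% at 2Ws and 16.2% at 3Ws. All 12 neutrophil markers were present in every library, Ly6g among them with 125, 114 and 190 FPKM in normal, 2Ws and 3Ws, so the labelled cell type was present in each. The methods name female mice as tumor recipients, but Ddx3y, a gene of the Y chromosome, stood at 19.9 FPKM in normal, 0 in 2Ws and 23.1 in 3Ws, and Xist, an RNA of female cells, at 0.00966, 24.7 and 0 FPKM. In comparisons with the 2Ws library, the sex of the mice and the tumor time cannot be told apart. Over genes that reached 1 FPKM in each of the libraries compared, the median log2 ratio was 0.00 for 2Ws against normal, −0.18 for 3Ws against normal and −0.16 for 3Ws against 2Ws. Differences at 3Ws are given as deposited and, where it matters, centred on that median.

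Genes were counted as higher or lower by a 2-fold rule on the ratio of FPKM plus 1, among genes that reached 1 FPKM in either library. Itgb7 was the only one of the 9 to pass it at 3Ws, where it was lower than in the normal library, as were 7.89% of the 11103 genes compared. Itgb1, Itgax and Itgb2l were lower at 3Ws by less than 2-fold. Itgam, Itga4 and Selplg were slightly higher. Itgb2 and Itgal were slightly lower as deposited, by 1.13-fold and 1.09-fold, with log2 ratios of 0.00 and 0.06 after centring. At 2Ws 0 of the 9 passed the rule in either direction, against 1.22% of 11269 genes lower and 1.29% higher.

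**Figure D1:**
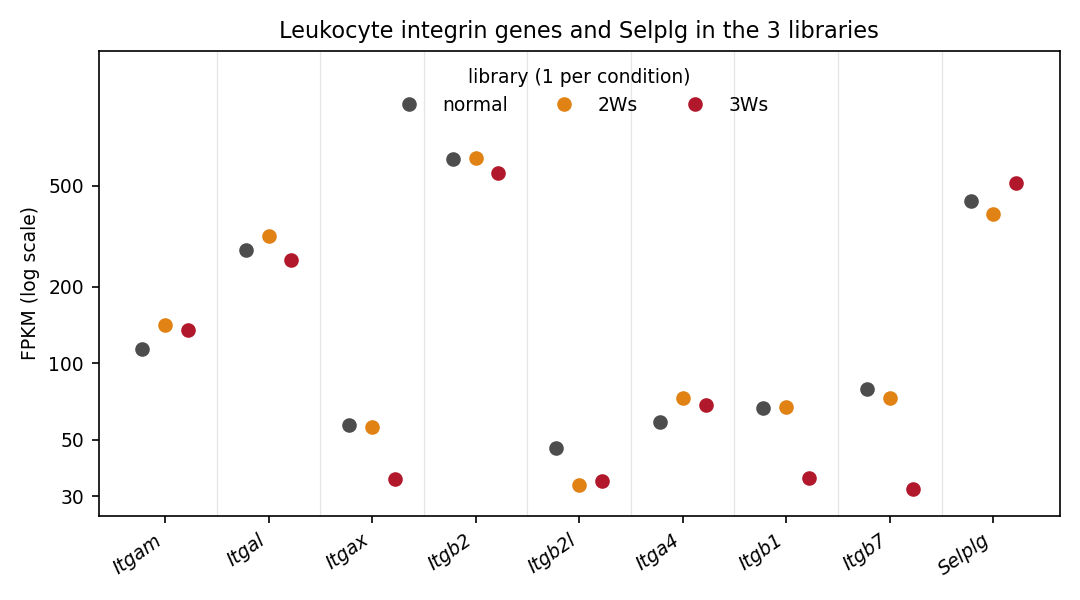
FPKM (log scale) of the 9 genes in each of the 3 libraries, 1 point per library. Itgb7, Itgb1 and Itgax stand apart at 3Ws, Itgb7 with 31.96 FPKM against 78.91 in the normal library, whereas the normal and 2Ws points of these 3 genes lie close together.

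The stretches just before the starts of 5 of these genes are shown because 3 of them, Itgb7, Itgb1 and Itgax, were lower together at 3Ws, and 2 close partners were not: Itga4 encodes the α chain that pairs with the β chains of Itgb7 and Itgb1, and Itgam lies next to Itgax on chromosome 7. RefSeq sequences of 250 bases before the annotated start were taken on GRCm38.p6, 5′ to 3′ on the strand of the gene. The promoter table held 6 of the 9 genes, with no entry for Itgal, Itgb2 and Selplg. Capitals mark matches, on either strand, to 3 short motifs: GAGGAA, the core of sites bound by the myeloid factor PU.1, TGTGGT, the core of RUNX sites, and GGGCGG, the GC box. No matches overlapped.
Itgb7, chr15:102231936-102232185, minus strand: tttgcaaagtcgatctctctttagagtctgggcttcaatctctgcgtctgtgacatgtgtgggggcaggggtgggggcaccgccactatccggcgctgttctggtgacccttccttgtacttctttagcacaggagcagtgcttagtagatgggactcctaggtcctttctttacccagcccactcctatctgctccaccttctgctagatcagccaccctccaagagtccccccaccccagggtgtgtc
Itgb1, chr8:128685404-128685653, plus strand: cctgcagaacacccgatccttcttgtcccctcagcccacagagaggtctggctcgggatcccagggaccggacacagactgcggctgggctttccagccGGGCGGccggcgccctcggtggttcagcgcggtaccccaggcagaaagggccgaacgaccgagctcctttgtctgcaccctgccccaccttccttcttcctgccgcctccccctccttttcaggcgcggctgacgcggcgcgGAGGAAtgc
Itga4, chr2:79255176-79255425, plus strand: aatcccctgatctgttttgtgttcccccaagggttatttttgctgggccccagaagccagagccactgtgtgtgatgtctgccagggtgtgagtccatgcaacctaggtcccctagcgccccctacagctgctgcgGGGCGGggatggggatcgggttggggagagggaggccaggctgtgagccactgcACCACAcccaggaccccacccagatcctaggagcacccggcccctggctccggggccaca
Itgax, chr7:128129300-128129549, plus strand: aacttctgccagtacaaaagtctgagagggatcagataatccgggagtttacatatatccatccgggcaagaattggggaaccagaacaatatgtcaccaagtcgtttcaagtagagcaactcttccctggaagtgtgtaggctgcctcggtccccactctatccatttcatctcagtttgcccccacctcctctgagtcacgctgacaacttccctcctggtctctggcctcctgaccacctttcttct
Itgam, chr7:128062390-128062639, plus strand: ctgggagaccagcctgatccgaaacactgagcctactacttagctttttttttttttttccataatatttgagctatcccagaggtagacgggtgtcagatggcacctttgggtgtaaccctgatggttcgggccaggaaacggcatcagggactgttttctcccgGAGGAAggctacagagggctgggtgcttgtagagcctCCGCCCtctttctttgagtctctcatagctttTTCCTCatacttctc
GAGGAA was found 2 times before Itgam, 1 time before Itgb1 and 2 times before Itgb2l, which is not printed, and not before Itgb7, Itga4 or Itgax. Of all 27025 promoters searched over the same length, 23.1% held it. A GC box was found once before each of Itgam, Itga4 and Itgb1, and 32.9% of all promoters held one. TGTGGT was found once, before Itga4, against 14.2% of all promoters. Itgb7, Itgb1 and Itgax shared none of the motifs, as the Itgb7 and Itgax stretches held no match. Itgb2l, which was 1.35-fold lower at 3Ws than normal, held GAGGAA, as did Itgb1 and, higher at 3Ws, Itgam. The Itgb1 stretch was the richest in G and C of the 6, at 68.0%. Itgb7 had 56.0%, and the median over all promoters was 52.0%. A match here describes letters and not a bound site.

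The RNA of the β2 chain was the most abundant of the 9 by FPKM as deposited. It was second to Selplg when the longest coding transcript was used as gene length. Itgb2 (ENSMUSG00000000290, chromosome 10 from 77530252 to 77565708 of GRCm38) encodes the β chain shared by LFA-1, Mac-1 and CD11c/CD18, and had 634.5 FPKM in the normal library, 640.8 at 2Ws and 560.7 at 3Ws. It exceeded 99.6%, 99.7% and 99.4% of the genes with at least 1 FPKM in these libraries. The 2Ws level was 1.01-fold the normal level, with an interval from 0.995 to 1.03 that includes no difference. At 3Ws the level was 1.13-fold lower than normal (95% interval 1.11 to 1.15), a log2 ratio of −0.18, and 0.00 once centred on the median of genes present in both.

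Of the genes of α chains that pair with β2, Itgal had the highest FPKM as deposited. Its rank above Itgam rests on the level of Itgam, which is uncertain because of exons shared with another gene model, as given below. Itgal (ENSMUSG00000030830, chromosome 7 from 127296260 to 127335138) encodes the αL chain of LFA-1, the receptor for ICAMs, and had 278.3 FPKM in the normal library, 318.0 at 2Ws and 256.0 at 3Ws. The 3 levels lay within a narrow range, highest at 2Ws. Against the normal library Itgal was 1.14-fold higher at 2Ws (95% interval 1.13 to 1.16) and 1.09-fold lower at 3Ws (95% interval 1.07 to 1.10). The log2 ratio at 3Ws was −0.12 as deposited and 0.06 after centring, so its direction depended on the scaling.

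Itgam (ENSMUSG00000030786, chromosome 7 from 128062640 to 128118491) encodes αM, the CD11b chain of Mac-1 that binds complement-coated particles, fibrinogen and ICAM-1. It had 113.8 FPKM in the normal library, 141.2 at 2Ws and 135.5 at 3Ws. Both tumor libraries were above the normal one, by 1.24-fold at 2Ws (95% interval 1.21 to 1.27) and by 1.19-fold at 3Ws (95% interval 1.16 to 1.22). The difference between the 2 tumor libraries, 1.04-fold lower at 3Ws (95% interval 1.02 to 1.07), turned from a log2 ratio of −0.06 to 0.10 when centred. In GENCODE M21, 3450 of the 5024 exon bases of Itgam (68.7%) also belong to Gm49368, a gene model on the same strand that had 1.16 to 1.43 FPKM. No source used here says how reads in shared exons were assigned, and the level of Itgam relative to other genes is therefore uncertain.

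Itgax (ENSMUSG00000030789, chromosome 7 from 128129547 to 128150657) encodes αX, the CD11c chain used as a marker of dendritic cells and present on other myeloid cells. It had 57.15 FPKM in the normal library, 56.09 at 2Ws and 35.04 at 3Ws. The normal and 2Ws libraries were alike to within counting error (ratio 0.981, 95% interval 0.942 to 1.02), and the 3Ws library stood below both. At 3Ws Itgax was 1.63-fold lower than normal (95% interval 1.56 to 1.71) and 1.60-fold lower than at 2Ws (95% interval 1.53 to 1.68). The log2 ratio against normal was −0.69, and −0.51 after centring; 18.0% of all genes compared had a lower ratio. Of the 50-base stretches of Itgax transcripts, 8.02% also occur in the neighbouring integrin gene Itgad, which had 0.104 to 0.308 FPKM.

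The makeup of the β2 partners differed between the libraries. The summed FPKM of Itgam, Itgal and Itgax was 449 in the normal library, 515 at 2Ws and 427 at 3Ws. Itgal held 62.0%, 61.7% and 60.0% of that sum, so its share was the steadiest. The share of Itgam was 25.3% in the normal library, 27.4% at 2Ws and 31.8% at 3Ws, and that of Itgax 12.7%, 10.9% and 8.21%. All of these shares rest on the level of Itgam, which its shared exons leave uncertain. Within a library, Itgam stood at 1.99 times the FPKM of Itgax in the normal library, at 2.52 times at 2Ws and at 3.87 times at 3Ws. That ratio was 1.94-fold higher at 3Ws than in the normal library (95% Wald interval 1.84 to 2.05) and 1.26-fold higher at 2Ws (95% Wald interval 1.20 to 1.33). Such a ratio within a library does not depend on how the library was scaled to depth, and its difference between libraries does not depend on gene length.

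Itgb2l (ENSMUSG00000000157, chromosome 16 from 96422288 to 96443619) encodes a β2-like protein of mouse granulocytes, once named pactolus. It had 46.32 FPKM in the normal library, 33.11 at 2Ws and 34.39 at 3Ws. Both tumor libraries were below the normal one and close to each other, and Itgb2l was the gene of the 9 with the lowest ratio at 2Ws. It was 1.40-fold lower at 2Ws (95% interval 1.31 to 1.49) and 1.35-fold lower at 3Ws (95% interval 1.27 to 1.43), while 3Ws against 2Ws gave 1.04-fold (95% interval 0.970 to 1.11). At 2Ws, 4.82% of all genes compared had a lower ratio than Itgb2l. At 3Ws its log2 ratio against normal was −0.42, and −0.24 after centring, and 34.6% of all genes compared had a lower one. The log2 ratio of 3Ws against 2Ws was 0.05, and 0.22 after centring. No 50-base stretch of its transcripts is shared with Itgb2. Granule genes that neutrophils make while they mature did not share one direction. Camp had 743, 325 and 222 FPKM in normal, 2Ws and 3Ws, Ltf 626, 314 and 250, and Ngp 2201, 1226 and 1197, all lower in both tumor libraries. Lcn2, with 492, 524 and 997 FPKM, and Mmp8, with 484, 501 and 1264, were higher at 3Ws. Their part in the values of Itgb2l was not tested.

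The α4 chain and its β partners moved apart at 3Ws. Itga4 (ENSMUSG00000027009, chromosome 2 from 79255426 to 79333123) encodes α4, which with β1 forms VLA-4, a receptor for VCAM-1 and fibronectin, and with β7 forms the gut homing receptor for MAdCAM-1. It had 58.73 FPKM in the normal library, 73.17 at 2Ws and 68.31 at 3Ws. Both tumor libraries were above the normal one, by 1.25-fold at 2Ws (95% interval 1.22 to 1.27) and by 1.16-fold at 3Ws (95% interval 1.14 to 1.19). Against 2Ws the 3Ws level was 1.07-fold lower (95% interval 1.05 to 1.09), and higher after centring, with a log2 ratio of 0.07. Of the exon bases of Itga4, 8.04% overlap Cerkl on the opposite strand, which had 0.199 to 0.263 FPKM.

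Itgb1 (ENSMUSG00000025809, chromosome 8 from 128685654 to 128733200) encodes β1, the most widely shared integrin β chain. It had 66.54 FPKM in the normal library, 67.40 at 2Ws and 35.40 at 3Ws. The normal and 2Ws levels did not differ beyond counting error (ratio 1.01, 95% interval 0.972 to 1.06), and the 3Ws level was far below both. It was 1.88-fold lower at 3Ws than in the normal library (95% interval 1.79 to 1.97) and 1.90-fold lower than at 2Ws (95% interval 1.81 to 2.00). The log2 ratio against normal was −0.89 as deposited and −0.71 after centring, and 10.8% of all genes compared had a lower one.

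Itgb7 (ENSMUSG00000001281, chromosome 15 from 102215995 to 102231944) encodes β7, which pairs with α4 and, in mucosal lymphocytes, with αE. It had 78.91 FPKM in the normal library, 73.27 at 2Ws and 31.96 at 3Ws, with 3750, 3326 and 1497 reads. The 3Ws value stood below the other libraries, which lay near each other. It fell 2.47-fold from the normal library to 3Ws (95% interval 2.32 to 2.62) and 2.29-fold from 2Ws to 3Ws (95% interval 2.16 to 2.44), but was only 1.08-fold lower at 2Ws than normal (95% interval 1.03 to 1.13). On the log2 scale the difference between 3Ws and normal was −1.28, or −1.10 after centring, and 3.94% of all genes compared had a lower ratio. By FPKM as deposited Itgb7 was the fifth most abundant of the 9 genes in the normal library, and at 3Ws the least abundant, which it also was with the longest coding transcripts. The αE gene Itgae had under 1 FPKM in every library.

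**Figure D2:**
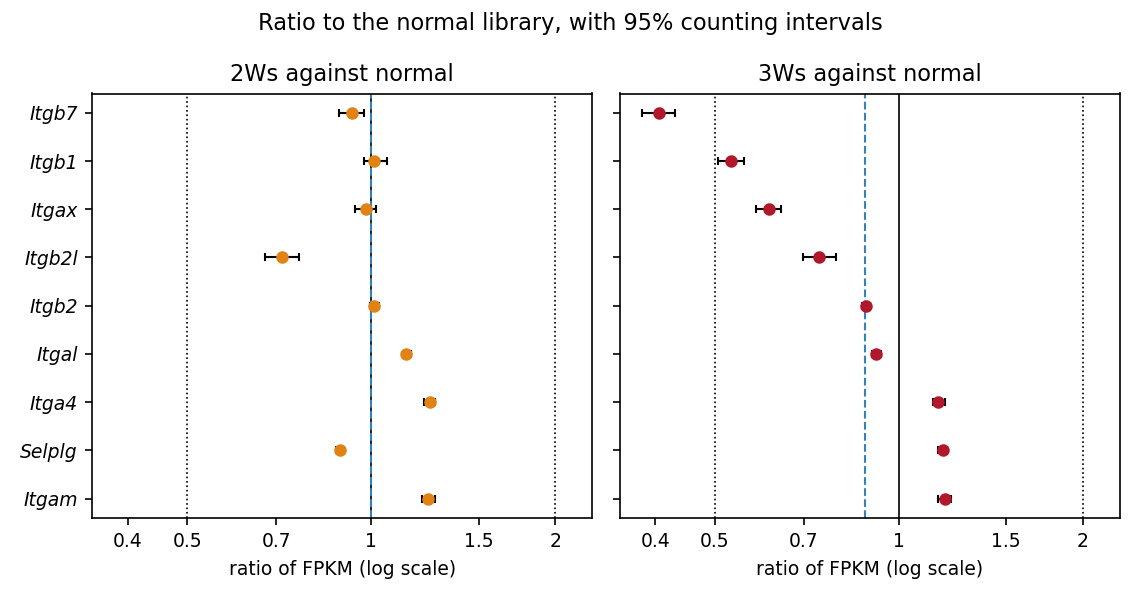
Ratio of FPKM (log scale) of each tumor library to the normal library, with 95% counting intervals as bars, dotted lines at 2-fold, a solid line at 1 and a dashed line at the median ratio of all genes that reached 1 FPKM in each library compared. At 3Ws only Itgb7, at 0.405, lies beyond the dotted line, and at 2Ws Itgb2l, at 0.715, lies farthest to the left.

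The ratio of Itga4 to Itgb1 was 0.883 in the normal library, 1.09 at 2Ws and 1.93 at 3Ws, on the FPKM scale. It was 1.23-fold higher at 2Ws than in the normal library (95% Wald interval 1.17 to 1.29) and 2.19-fold higher at 3Ws (95% Wald interval 2.07 to 2.31). The ratio of Itga4 to Itgb7 was 0.744, 0.999 and 2.14, which is 1.34-fold higher at 2Ws (95% Wald interval 1.27 to 1.41) and 2.87-fold higher at 3Ws (95% Wald interval 2.69 to 3.06). Both β partners were thus low against their α chain at 3Ws, and Itgb7 more so than Itgb1. Itgb7 had 1.19 times the FPKM of Itgb1 in the normal library and 0.903 times at 3Ws, a difference of the ratio of 0.761-fold (95% Wald interval 0.705 to 0.822). Summed, the β partners had 145 FPKM in the normal library, 141 at 2Ws and 67.4 at 3Ws, so that Itga4 stood at 0.404, 0.520 and 1.01 of their sum. These levels between genes rest on the gene lengths: with the length of the longest coding transcript, 9767 bases in place of 13978 for Itga4, the values were 0.553, 0.712 and 1.39, and Itga4 was above Itgb1 already in the normal library.

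**Figure D3:**
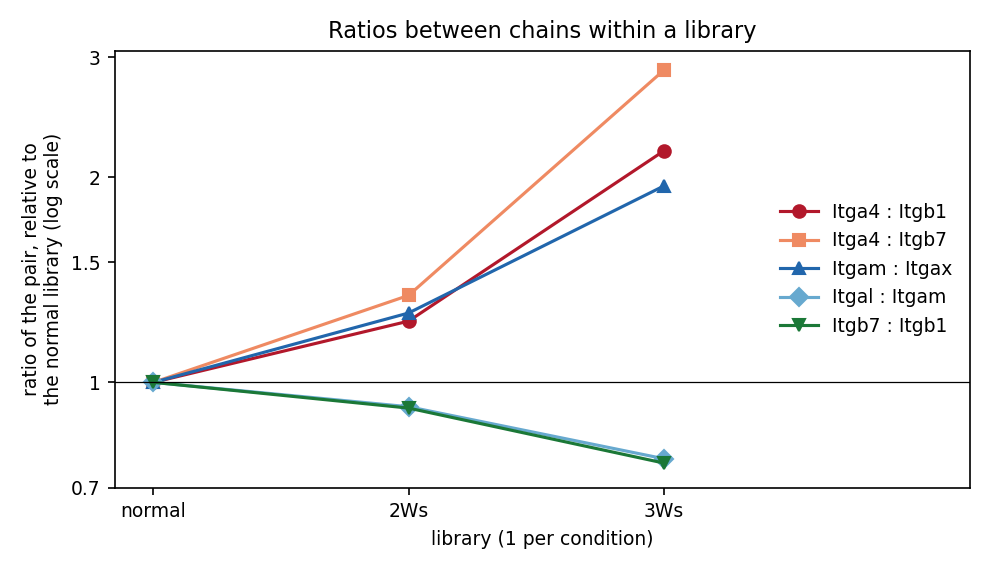
Ratio of the FPKM of paired genes within each library, divided by the same ratio in the normal library (log scale), with 1 line per pair and 1 library per condition. The Itga4 to Itgb7 and Itga4 to Itgb1 ratios stand at 2.87 and 2.19 at 3Ws and Itgam to Itgax at 1.94, while Itgb7 to Itgb1 stands at 0.761.

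Selplg (ENSMUSG00000048163, chromosome 5 from 113818536 to 113832644) encodes PSGL-1, the ligand through which leukocytes roll on P-selectin. It had 435.3 FPKM in the normal library, 387.1 at 2Ws and 513.7 at 3Ws, which was below Itgb2 in each library. With the longest coding transcript, 1855 bases in place of 4272, the level of Selplg was 1003, 891.6 and 1183, and above Itgb2, at 652.0, 658.5 and 576.2, in each. The 2Ws library was the lowest and the 3Ws library the highest. Selplg was 1.12-fold lower at 2Ws than in the normal library (95% interval 1.11 to 1.14) and 1.18-fold higher at 3Ws (95% interval 1.16 to 1.20), and from 2Ws to 3Ws the level was 1.33-fold higher (95% interval 1.31 to 1.35).

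By FPKM as deposited, the order of the 9 genes in the normal library was Itgb2, Selplg, Itgal, Itgam, Itgb7, Itgb1, Itga4, Itgax and Itgb2l. Of these neighbours only Itga4 and Itgax did not differ beyond counting error (ratio 1.03, 95% interval 0.994 to 1.06). The first 4 genes kept their places in all 3 libraries. At 2Ws the lower places were Itgb7, Itga4, Itgb1, Itgax and Itgb2l, and Itgb7 and Itga4 could not be separated (ratio 1.00, 95% interval 0.965 to 1.04). At 3Ws they were Itga4, Itgb1, Itgax, Itgb2l and Itgb7, where Itgb1 could not be separated from Itgax (ratio 1.01, 95% interval 0.957 to 1.07), nor Itgax from Itgb2l (ratio 1.02, 95% interval 0.960 to 1.08). This order depends on gene length, and the place of Itgam also on how reads in its shared exons were assigned. With the longest coding transcripts, Selplg came before Itgb2 in every library, Itga4 came before Itgb7 and Itgb1 in the normal library and before Itgb7 at 2Ws, and Itgax came before Itgb1 at 3Ws, while the other genes kept their order. The summed FPKM of the 9 genes as deposited was 1770, 1790 and 1671.

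Besides Itgb7, which was lower, 0 of the 9 genes passed the 2-fold rule upward at 3Ws against normal, where 2.60% of all genes did. For 3Ws against 2Ws, again Itgb7 alone was lower and 0 were higher, against 7.37% and 2.00% of 11119 genes. The log2 ratio of Itgb7 there was −1.17, and −1.01 after centring, only just past the 2-fold rule. At 1.5-fold, Itgb7, Itgb1 and Itgax were lower at 3Ws than in the normal library and than at 2Ws, 3 of 9 in each case, against 23.6% and 20.7% of all genes. These counts are near the shares of all genes, so the 9 genes as a group did not stand out by count. Their median log2 ratio was 0.01 at 2Ws, −0.18 for 3Ws against normal and −0.19 for 3Ws against 2Ws, where all genes compared had 0.00, −0.24 and −0.21. The comparisons share libraries and are not independent of each other.

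The 3 genes whose pattern over the libraries was most like that of Itgb7, by the root mean square difference of centred log2 values among 6300 genes, were Hpse, Calu and Tmem173. Hpse, which encodes heparanase, an enzyme that cuts heparan sulfate, had 9.50, 8.46 and 3.31 FPKM in normal, 2Ws and 3Ws, at a difference of 0.0205. Calu, a calcium-binding protein of the secretory pathway, had 8.65, 8.15 and 3.15 FPKM, and Tmem173, which encodes the DNA sensing adaptor STING, 9.45, 9.13 and 3.38. Because these 3 were picked for their likeness to Itgb7, they share with it a small difference at 2Ws and a level at 3Ws well below both.

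Genes around the integrins gave a mixed picture at 3Ws. Over all genes compared between 3Ws and normal, 7.89% were at least 2-fold lower and 2.60% higher, and the median log2 ratio was −0.24. Of 19 other integrin chains only 7 reached 1 FPKM in the normal or the 3Ws library, with 2 at least 2-fold lower and 0 higher. Their median log2 ratio was −0.91, or −0.73 after centring. Itga6, the laminin-binding α6 chain, had 17.1 FPKM in the normal library, 21.3 at 2Ws and 4.82 at 3Ws. Its 3Ws level was 3.55-fold below the normal one (95% interval 3.28 to 3.86). Itgb3, the β3 chain of platelets and some other cells, had 9.31, 12.0 and 3.32 FPKM and was 2.80-fold lower (95% interval 2.47 to 3.18). Both were low at 3Ws alone. Itga5, the fibronectin receptor chain that pairs with β1, had 23.1, 20.1 and 24.4 FPKM, and so was near its normal level at 3Ws where Itgb1 was low.

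Of 33 genes of integrin activation and signaling, 27 were compared at 3Ws. One, Parvb, was at least 2-fold lower than in the normal library and 0 were higher, and the median log2 ratio was 0.09, or 0.27 after centring. Fgr, a Src family kinase of myeloid cells that acts below β2 integrins, had 292, 298 and 347 FPKM in normal, 2Ws and 3Ws, and Rap1b, a GTPase of integrin activation, had 279, 308 and 320. Rassf5, which encodes RAPL, the link between Rap1 and LFA-1, had 105, 127 and 185 FPKM, 1.77-fold higher at 3Ws than normal (95% interval 1.72 to 1.82) and short of the 2-fold rule. Parvb, which encodes β-parvin of focal adhesions, had 5.91, 6.21 and 1.47 FPKM. The kinase gene Ilk, which nearly every cell uses, is listed at 0, 0.0220 and 0 FPKM; it overlaps Taf10 and Rrp8 on the opposite strand, and its values are not read as absence.

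Of 13 measured ligands and counter-receptors, 7 were compared at 3Ws, with 2 lower and 0 higher. Their median log2 ratio was −0.58, or −0.40 after centring. The lower genes were Icam2, a ligand of LFA-1, with 35.9, 32.5 and 12.1 FPKM, and Fn1, the fibronectin gene, with 269, 270 and 97.6. Both had close levels in the normal and 2Ws libraries and a lower one at 3Ws. Cd47, whose protein binds integrins and SIRPα, had 69.1, 62.1 and 75.5 FPKM.

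Of 8 selectins and other selectin ligands, 6 were compared at 3Ws, with 1 lower and 0 higher. Their median log2 ratio was 0.02, or 0.20 after centring. The lower gene was Selp, the P-selectin of platelets and endothelium, with 12.7, 14.4 and 5.27 FPKM, which is 2.42-fold lower (95% interval 2.15 to 2.72). Cd44, a carrier of E-selectin binding glycans, had 338, 345 and 376 FPKM, and Cd24a, a glycoprotein that binds P-selectin, 239, 284 and 242. Of 15 genes that build selectin ligands, 12 were compared, with 2 lower, 0 higher and a median of −0.32, or −0.14 after centring. The lower genes were the sialyltransferase gene St3gal3, with 2.86, 2.99 and 0.740 FPKM, and the tyrosine sulfotransferase gene Tpst1, with 2.57, 2.23 and 0.630. The most abundant enzymes were higher at 3Ws without passing the rule: Gcnt1, which builds the core 2 branch that carries PSGL-1 glycans, had 57.2, 65.0 and 103 FPKM, and the sialyltransferase gene St3gal4 61.5, 66.9 and 92.2. At 2Ws no compared gene of these 5 lists was at least 2-fold higher or lower than in the normal library. Of all 11269 genes compared there, only 1.22% were lower and 1.29% higher, so the lists did not stand out by count.

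**Figure D4:**
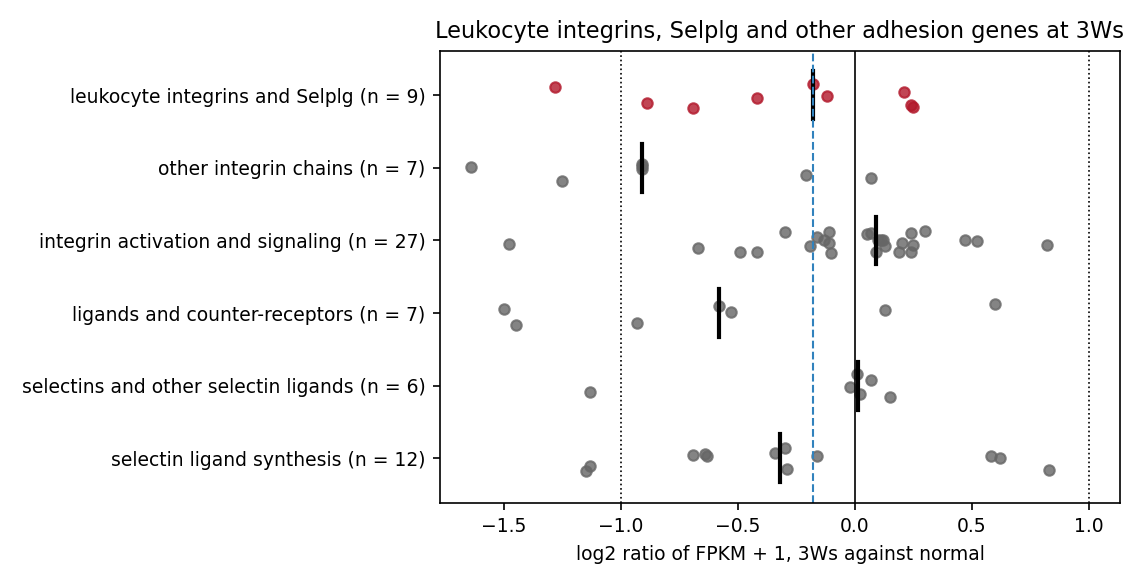
Log2 ratio of FPKM + 1 at 3Ws against normal for the 9 genes and for the compared genes of the 5 adhesion lists, 1 point per gene, with the list median as a black bar, dotted lines at 2-fold and a dashed line at the median ratio of all genes that reached 1 FPKM in each library compared. The signaling list centres at 0.09, the other integrin chains at −0.91, and Itgb7, at −1.28, is the one gene of the top row beyond the dotted lines.

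Several marker lists of other blood cells had their lowest sums at 3Ws. The summed FPKM of 12 B cell markers was 537 in the normal library, 687 at 2Ws and 125 at 3Ws, and all 11 that were compared at 3Ws were at least 2-fold lower than in the normal library. The 7 macrophage markers summed to 167, 134 and 51.0 FPKM, with 7 of 7 lower at 3Ws, and the 10 monocyte markers to 401, 334 and 240, with 6 of 10 lower. The 11 platelet markers, which include Itgb3 and Itga2b of the integrin list, summed to 125, 151 and 30.9, with 5 of 9 lower, and the 7 dendritic cell markers to 32.6, 19.2 and 5.55, with 2 of 4 lower. All 5 sums were lowest at 3Ws, the library in which Itgb7, Itgb1 and Itgax were lowest too. Ighm, the immunoglobulin heavy chain of B cells, had 302, 364 and 74.1 FPKM, and Cd79a, a chain of the B cell receptor, 68.2, 94.2 and 13.3. Of the macrophage receptor genes, Adgre1 had 76.2, 81.7 and 33.8 FPKM and Timd4 39.4, 28.1 and 5.61. These B cell and macrophage genes were all lowest at 3Ws. Among monocyte genes, Csf1r, the receptor of macrophage colony-stimulating factor, had 149, 130 and 104 FPKM, and Ly6c2 92.5, 55.8 and 51.9. The platelet chemokine genes Pf4 and Ppbp had 71.4, 66.8 and 11.1 FPKM and 19.6, 34.2 and 5.57 FPKM, and the dendritic cell lectin genes Cd209a and Clec10a 21.5, 9.85 and 1.48 FPKM and 6.53, 4.54 and 1.37 FPKM. Lymphocytes also carry β1 and β7 and dendritic cells αX, and the part of other cells in the values of Itgb7, Itgb1 and Itgax was not tested. At 2Ws the B cell and platelet sums were higher than in the normal library, and the macrophage, monocyte and dendritic cell sums were lower. In the same comparison Itgb7 was 1.08-fold lower, and Itgb1 and Itgax did not differ beyond counting error.

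The sums of the other marker lists did not share one direction. The 10 T cell markers, led by Cd3d and Trac, summed to 5.77, 10.6 and 4.72 FPKM, and the 8 NK cell markers, led by Gzma and Klrd1, to 10.6, 8.70 and 11.4. The 5 eosinophil markers, led by Siglecf and Ccr3, summed to 26.1, 42.3 and 26.1 FPKM. The equal sums in normal and 3Ws hide opposite directions: Siglecf had 17.1, 19.7 and 23.0 FPKM, while the other 4 were lower at 3Ws than normal, Ccr3 with 5.13, 15.8 and 2.22. No defining marker of a cell type was at 0 in any library. The 6 basophil and mast cell markers, led by Ms4a2 and Cpa3, summed to 3.28 FPKM at 2Ws and 0.884 at 3Ws, 11.1% of the normal sum. The 5 primary granule genes of early neutrophil precursors, led by Prtn3 and Elane, summed to 9.42, 7.58 and 4.61 FPKM. The 12 neutrophil markers summed to 46117, 50454 and 69514 FPKM, with 3 at least 2-fold higher and 2 lower at 3Ws than in the normal library. In bulk RNA of this kind, fewer cells of a type and less RNA per cell cannot be told apart.

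**Figure D5:**
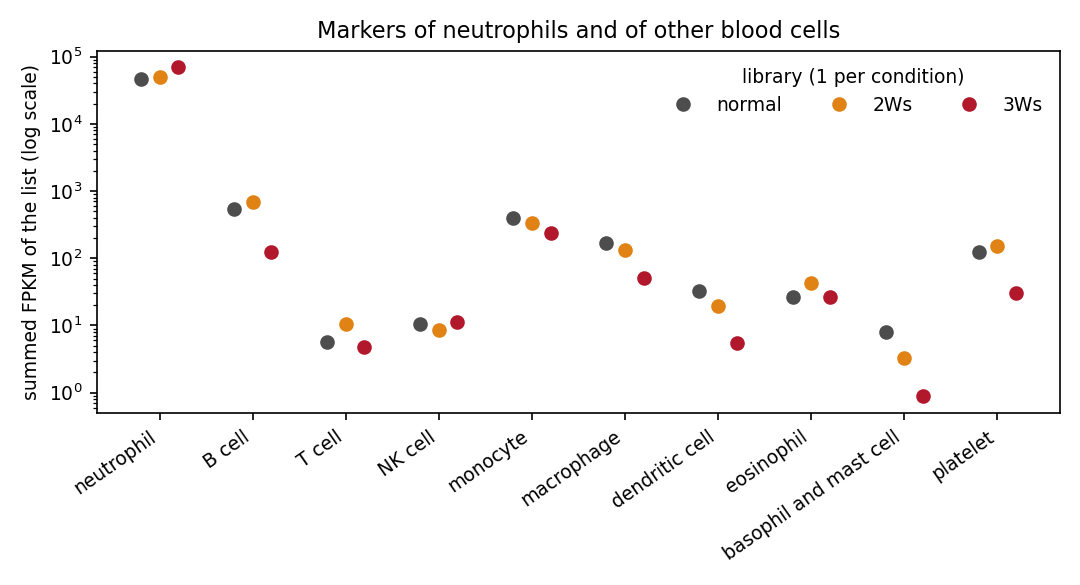
Summed FPKM (log scale) of the markers of neutrophils and of 9 other blood cell types in each of the 3 libraries, 1 point per library. At 3Ws the B cell sum stands at 125 and the platelet sum at 30.9, both the lowest of the 3 libraries, whereas the neutrophil sum is highest there, at 69514.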

How the data were processed

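The authors aligned the reads to GRCm38 with HISAT2 2.1.0 (the processing notes also name Bowtie2 2.2.3) and deposited FPKM per Ensembl gene; which tool counted the reads, on which annotation release and whether by strand is not given in the sources used here. Of 26655 genes, 26565 were named through GENCODE M21. FPKM values were multiplied by exon length and library total to recover reads; the products were whole, to within 0.001, for 88.6% of 23378 genes above 0, and for 7 of the 9 genes described. Itgb7 and Itgb2l were whole at 2743 and 2936 bases, which were used for them. Log2 ratios used a pseudocount of 1 FPKM, which understates differences of low genes, and covered genes that reached 1 FPKM in either library. Named by rule were all 9 genes, Xist and Ddx3y, per adhesion list the 2 highest genes by mean FPKM and the 2 with the largest log2 ratio at 3Ws, per cell type the 2 highest, and the 3 genes nearest to any of the 9 past 2-fold; Camp, Ltf, Ngp, Lcn2, Mmp8, Ly6g, Itgae, Itgad, Itga2b, Ilk, Gm49368 and Cerkl were named after their values were seen. The genes and lists were chosen with earlier results of these data known. The normal library carries another number in its file than in its title and is the only normal one. One gene that the rule also covers is not reported here. The log2 ratio, the 2-fold rule and the counting interval were run on simulated libraries of equal depth with known folds. These held counting error only and no variation between mice, so they check the calculations and not the differences reported. Alternatives were 9 settings of pseudocount, filter, scaling and fold. Calculations ran in Python 3.11.15 (scipy 1.17.1, pandas 2.3.3, numpy 2.4.6), and plots in matplotlib 3.10.9.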

Additional observations from a re-analysis of the deposited data

Results flagged for a closer look

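Itgal and Selplg lay on opposite sides of the normal library at 2Ws and at 3Ws, each with counting intervals that exclude a ratio of 1. The log2 ratio of Itgal was 0.19 at 2Ws and −0.12 at 3Ws, and 0.06 at 3Ws after centring. The log2 ratio of Selplg was −0.17 at 2Ws and 0.24 at 3Ws. Both contrasts use the same single normal library, and the difference between them was not tested.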

How the results depend on the processing

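No paired analysis was possible because each condition has 1 library. The counts at 2-fold and the medians over the 9 genes stayed in 66 of their alternative values (counts within 1.5 times) and moved in 9, which follow. The median log2 ratio at 2Ws was 0.11 relative to Actb. For 3Ws against normal it was 0.00 after centring, −0.09 relative to Actb and −0.11 when rescaled without S100a8 and S100a9, and for 3Ws against 2Ws it was −0.03 after centring. In both 3Ws comparisons 3 genes were lower at 1.5-fold and 0 at 4-fold. Among genes past no threshold, scaling turned or levelled Itgax at 2Ws (0.07 relative to Actb and 0.01 without S100a8 and S100a9), Itgal and Itgb2 at 3Ws against normal (0.06 and 0.00 after centring), and Itga4 and Itgam at 3Ws against 2Ws (0.07 and 0.10 after centring). The lengths of the longest coding transcripts, an alternative chosen after seeing the data, moved 23 of 27 ratios between genes within a library. For these ratios the reads were the same and only the lengths differed. The cause of the moves under other scalings was not tested. Each of the 9 genes had at least 1497 reads in every library, and variation between mice or preparations was not measured.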
